A study of Homo sapiens with 6 samples.

Results

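The 10 genes described here encode secreted cytokines: the IL-1 pair IL1A and IL1B, the IL-6 family members IL6, IL11 and LIF, the interleukins IL24 and IL32, and the colony-stimulating factors CSF1, CSF2 and CSF3. They were taken by symbol from the 58882 rows of each deposited table, and each of the 10 had 1 Ensembl row. They were picked as a family of genes, with earlier results of these data known. They lie on 8 chromosomes.

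These proteins carry signals between cells. IL-1α and IL-1β bind the same receptor and start signalling through MYD88 and NF-kB, and they induce many other cytokines. IL-6, IL-11 and LIF act through receptor complexes that share gp130, the product of IL6ST, and activate the JAK kinases and STAT3. The colony-stimulating factors drive the growth and maturation of granulocytes and macrophages, and carcinoma cells can secrete them too. Transcription of several of these genes is controlled by NF-kB, AP-1 and C/EBP factors, and many of their mRNAs carry AU-rich elements in the 3′ UTR through which they are degraded quickly.

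RNA sequencing was done on T24 cells, an established human line from a transitional cell carcinoma of the urinary bladder. The Q63E group (3 libraries) stably carried Q63E, a constitutively active mutant of the small GTPase RhoC, and the VEC group (3 libraries) carried the vector. Both were made with lentivirus and kept under puromycin selection, so both share transduction and selection. Which promoter drove the transgene, and whether the stable cells were a pool or a clone, is not stated in the labels. Nor do they say whether the libraries of a group came from separate cultures, so p-values reflect library-to-library spread alone, and that spread may be technical.

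The deposited values were taken as FPKM, that is reads or fragments scaled by transcript length and by library size, and so allow levels of different genes to be set side by side. Summed values per library ran from 726929 to 741778 in Q63E and from 746175 to 769026 in VEC, and the depth in reads is unknown. Mitochondrial transcripts held 5.58% to 6.27% of the sum in Q63E and 8.44% to 9.44% in VEC, and their part in the results below was not tested. The targeted gene RHOC averaged 1746 ± 22.3 FPKM in Q63E and 227 ± 8.27 in VEC (SD, n = 3 each), with no overlap between the groups. The transduced and the cell's own copies share this row. Several epithelial markers, mostly keratins, moved with the groups. Of 17 urothelial and epithelial markers 7 were tested, and 5 rose (KRT7, KRT8, KRT18, KRT19 and PPARG), where 11.3% of all genes tested did, and 0 fell (1 at an unadjusted p under 0.05, GATA3). KRT8 averaged 985 FPKM in Q63E and 581 in VEC, and KRT19 averaged 161 in Q63E and 5.67 in VEC (adjusted p = 3.12e-07). GATA3 averaged 0.363 FPKM in Q63E and 1.79 in VEC and did not pass, nor did FOXA1. The summed markers, mostly KRT7, KRT8 and KRT18, ranged from 3378 to 3481 FPKM in Q63E and from 2134 to 2175 in VEC. The part of these markers in the cytokine results was not tested. UPK3A, KRT5 and CDH1 were listed at 0 in all 6 libraries. Of 14 leukocyte markers 8 were listed at 0 in all 6 libraries, among them PTPRC, the gene of the pan-leukocyte antigen CD45. The summed leukocyte markers ranged from 9.97 to 11.4 FPKM in Q63E and from 18.84 to 20.04 in VEC, nearly all of it CD68, a lysosomal protein that other cells make as well.

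Most of these cytokine transcripts were lower in cells with active RhoC. Of the 9 genes that reached the minimum mean of 1 FPKM over the 6 libraries, 7 fell past an adjusted p of 0.05 in limma, namely IL1A, IL1B, IL6, IL32, LIF, CSF2 and CSF3, against 14.0% of all 13346 genes tested that were called lower and 25.3% called in either direction. None of the 9 rose past the threshold (11.3% of all genes did), and 1 had an unadjusted p under 0.05 in that direction, IL11. All 3 Q63E libraries lay below all 3 VEC libraries for 8 of the 10 genes, the 7 and IL24, where 22.8% of all genes tested did so, and above them for 1, IL11, where 21.1% did so. For IL1B, IL32, CSF2 and CSF3 the call came with a Q63E mean of at most 50% of the VEC mean, as it did for 2.19% of all genes. The median log2 fold change of the 9 was −0.621, against −0.002 over all genes tested. Fold changes are log2 differences of value + 1, Q63E minus VEC, and understate changes of low genes, while percentages of the VEC level are ratios of group means. In bulk RNA, fewer cells that make a transcript and less of it per cell cannot be told apart.

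**Figure D1:**
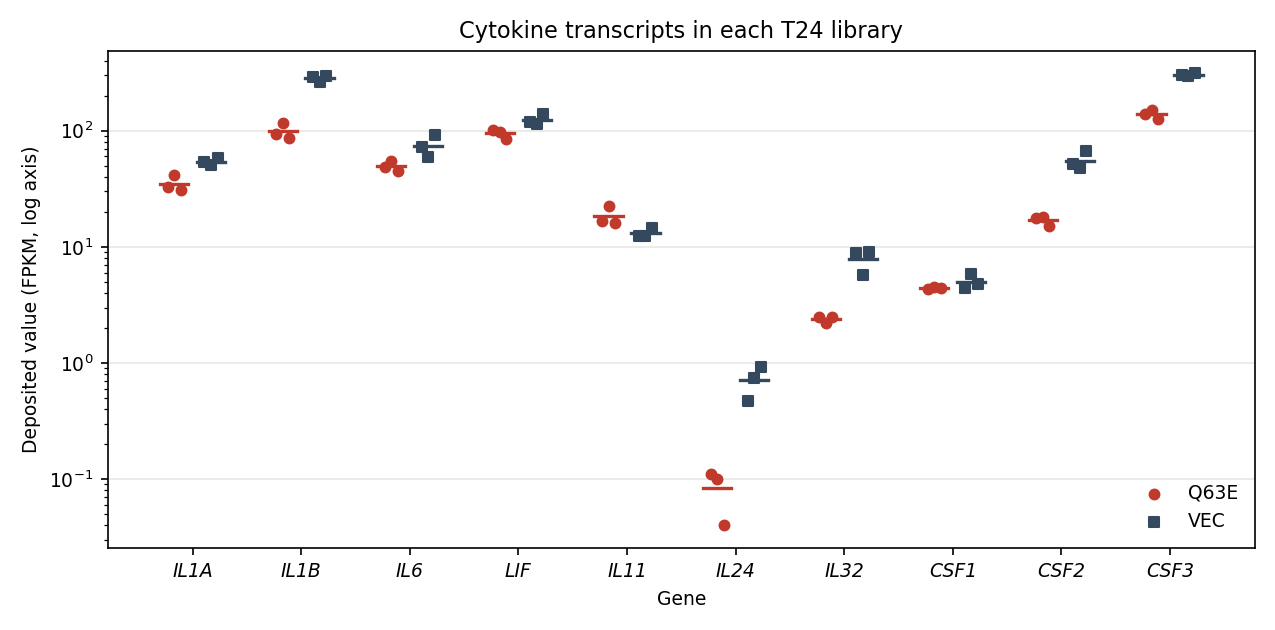
Deposited value in FPKM (log axis) of each of the 10 cytokine genes in each library, with Q63E as red circles, VEC as dark squares and a bar at each group's mean. The groups do not overlap for 9 of the 10 genes; IL11 is the gene whose 3 Q63E points all lie above VEC, and CSF1 the gene whose points overlap.

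Both genes of the IL-1 pair fell. IL1B (ENSG00000125538, chromosome 2 from 112829751 to 112836903, minus strand of GRCh38), whose product is made as a precursor and cut by caspase-1, had values of 94.0, 116 and 86.8 FPKM in the Q63E libraries and 291, 262 and 299 in the VEC libraries. Every Q63E library was far below every VEC library. The Q63E mean was 34.9% of the VEC mean, with a log2 fold change of −1.52 (SE 0.111, adjusted p = 0.000361). Among 19748 protein-coding rows it ranked 1012 by mean level in Q63E and 299 in VEC.

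IL1A (ENSG00000115008, chromosome 2 from 112773915 to 112784590, minus strand), whose precursor is active at the receptor without cutting, had 32.5, 41.8 and 30.8 FPKM in Q63E and 53.6, 50.5 and 58.0 in VEC. The groups stayed apart, but by less than for IL1B. IL1A in Q63E averaged 64.9% of the VEC mean (log2 fold change −0.62, SE 0.118, adjusted p = 0.0115). The ratio of IL1B to IL1A within a library was 2.89, 2.78 and 2.82 in Q63E and 5.43, 5.19 and 5.15 in VEC. These ratios were tight within each group and did not overlap between groups. The exact two-sided permutation p of 0.1 is the smallest that 3 against 3 libraries can give, and 0.12 after Benjamini-Hochberg adjustment over the 6 ratios computed.

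The 300 bases around the start sites of the pair are shown because these related genes lie near each other and differed in the size of their fall. They come from RefSeq on GRCh38.p14, on the minus strand, and run from 250 bases before the start to 50 after it. The IL1A window is chr2:112784351-112784650 and the IL1B window chr2:112836730-112837029, and the letters below are in 5′ to 3′ order with motif matches in capitals.
IL1A: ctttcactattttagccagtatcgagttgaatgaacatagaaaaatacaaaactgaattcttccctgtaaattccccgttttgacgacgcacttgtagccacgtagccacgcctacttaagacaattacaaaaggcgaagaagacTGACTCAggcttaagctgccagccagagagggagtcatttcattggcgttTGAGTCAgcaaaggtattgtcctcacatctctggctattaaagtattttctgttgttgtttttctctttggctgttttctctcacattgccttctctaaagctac
IL1B: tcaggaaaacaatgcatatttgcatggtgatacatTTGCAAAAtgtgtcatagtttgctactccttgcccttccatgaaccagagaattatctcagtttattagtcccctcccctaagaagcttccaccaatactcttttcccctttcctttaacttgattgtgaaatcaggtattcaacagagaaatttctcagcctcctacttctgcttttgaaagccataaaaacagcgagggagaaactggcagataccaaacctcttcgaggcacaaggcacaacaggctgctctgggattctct
The capitals in IL1A are 2 matches to the AP-1 letters TGANTCA, which begin 105 and 55 bases before this start site. For the other IL1A start that RefSeq annotates, in the window chr2:112784444-112784743, the same letters begin 12 bases before the start and at position 39 counted from the start base as 1, and a TATAAA begins 239 bases before it. The capitals in IL1B are a match to the C/EBP letters TTGCNNAA, which begins 215 bases before it.

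Within the IL-6 family, the 2 most abundant members were lower in Q63E and IL11 was not. LIF (ENSG00000128342, chromosome 22 from 30240447 to 30246851, minus strand), named for inhibiting leukaemia cell growth and known for holding mouse embryonic stem cells undifferentiated, had 102, 97.2 and 84.6 FPKM in Q63E and 119.9, 114 and 140.3 in VEC. All Q63E libraries lay below all VEC libraries by a small margin. Its average in Q63E was 76.0% of the VEC mean (log2 fold change −0.39, SE 0.0995, adjusted p = 0.0315). The call did not hold when Q63E replicate 2 or 3 or VEC replicate 1 or 3 was left out (adjusted p of up to 0.0831), nor after subtraction of the median of the 50 neighbouring genes (log2 fold change −0.31, adjusted p = 0.0981). An antisense gene that overlaps LIF, AC004264.1, had 3.15 to 4.94 FPKM in Q63E and 4.15 to 4.89 in VEC.

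IL6 (ENSG00000136244, chromosome 7 from 22725884 to 22732002, plus strand), an inducer of the acute phase response and a growth signal for B-lineage cells, had 48.4, 54.4 and 45.4 FPKM in Q63E and 71.9, 59.2 and 91.9 in VEC. The groups did not overlap, and the VEC libraries were spread far more widely than the Q63E libraries. The Q63E mean was 66.4% of the VEC mean (log2 fold change −0.56, SE 0.157, adjusted p = 0.0425). Without any one of the libraries other than VEC replicate 2 the call did not hold, with adjusted p of up to 0.126. Reads of IL6 can be shared with 2 genes that overlap it on the opposite strand. STEAP1B had 4.79 to 6.79 FPKM in Q63E and 5.94 to 7.20 in VEC, and AC073072.1 had 0.87 to 1.23 in Q63E and 0.11 to 0.43 in VEC.

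IL11 (ENSG00000095752, chromosome 19 from 55364389 to 55370463, minus strand), a cytokine of stromal and epithelial cells that also stimulates platelet precursors, had 16.8, 22.3 and 16.1 FPKM in Q63E and 12.4, 12.3 and 14.7 in VEC. Here the Q63E libraries all lay above the VEC libraries. The log2 fold change was 0.45 (95% interval 0.13 to 0.77) and the adjusted p of 0.0515 missed the threshold. It passed under 5 of 15 alternatives, among them a pseudocount of 0.1 and each rescaling of the libraries (adjusted p over all of them from 0.0381 to 0.138). The ratio of IL6 to IL11 within a library was 2.88, 2.44 and 2.81 in Q63E and 5.80, 4.82 and 6.27 in VEC. That of LIF to IL6 was 2.11, 1.79 and 1.86 in Q63E and 1.67, 1.92 and 1.53 in VEC. The ratio of IL6 to IL11 separated the groups (exact permutation p = 0.1, adjusted 0.12) and that of LIF to IL6 did not (exact permutation p = 0.3, adjusted 0.3). LIF to IL11 was 4.37 to 6.09 in Q63E and 9.25 to 9.66 in VEC, also without overlap (exact permutation p = 0.1, adjusted 0.12).

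The start regions of IL6 and IL11 are shown because these family members lay on opposite sides of the vector level. The IL6 window is chr7:22726950-22727249 on the plus strand and the IL11 window chr19:55370414-55370713 on the minus strand, both RefSeq on GRCh38.p14, 5′ to 3′.
IL6: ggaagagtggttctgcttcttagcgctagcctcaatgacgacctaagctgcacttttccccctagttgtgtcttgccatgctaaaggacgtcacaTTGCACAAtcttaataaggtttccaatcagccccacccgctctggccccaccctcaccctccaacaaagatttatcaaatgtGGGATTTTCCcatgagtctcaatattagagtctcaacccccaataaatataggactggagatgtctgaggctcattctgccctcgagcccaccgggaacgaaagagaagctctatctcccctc
IL11: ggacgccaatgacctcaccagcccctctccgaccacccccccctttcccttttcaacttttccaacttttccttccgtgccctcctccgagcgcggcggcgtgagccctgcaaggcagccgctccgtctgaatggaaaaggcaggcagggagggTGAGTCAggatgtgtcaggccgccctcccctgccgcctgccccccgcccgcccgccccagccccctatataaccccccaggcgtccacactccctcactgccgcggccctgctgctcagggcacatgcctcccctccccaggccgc
In IL6 the capitals are a C/EBP match 155 bases before the start site and a match to the NF-kB consensus 73 bases before it. In IL11 they are an AP-1 match 96 bases before it.

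Windows of this kind were found for 7 of the 10 genes, 9 windows in all, and searched on both strands. The NF-kB consensus was in 2 of the 9 (IL6 and IL32, where 2 matches on opposite strands overlap), against 5.91% of 35116 RefSeq promoter windows and 6.64% of the 14301 of genes tested here. AP-1 letters were in 3 (both IL1A windows, which overlap, and IL11), against 7.71% of all windows and 5.22% of those of tested genes. C/EBP letters were in 2, against 10.5% of all and 7.28% of tested. A TATAAA was in 1 of the 9, against 11.5% of all and 6% of tested, and the CArG box bound by SRF in 0, against 1.29% and 1.08%. No searched letters were found in the windows of CSF2 and IL24. These are matches of letters and not shown to be bound.

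CSF3 and CSF2 fell and CSF1 did not pass the threshold. CSF3 (ENSG00000108342, chromosome 17 from 40015361 to 40017813, plus strand) encodes G-CSF, which raises neutrophil output from the marrow. It had 138, 152 and 127 FPKM in Q63E and 301, 295 and 312 in VEC. By its mean it was the most abundant of the 10 transcripts in each group, and no Q63E library came near a VEC library. Its Q63E mean was 45.9% of the VEC mean (log2 fold change −1.12, SE 0.0675, adjusted p = 0.000191).

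CSF2 (ENSG00000164400, chromosome 5 from 132073790 to 132076170, plus strand) encodes GM-CSF, which acts on granulocytes, macrophages and dendritic cells. Its values were 17.6, 18.1 and 15.2 FPKM in Q63E and 51.4, 48.2 and 66.5 in VEC. The groups were widely separated. The Q63E mean was 30.6% of the VEC mean, and the log2 fold change of −1.64 (SE 0.129, adjusted p = 0.000447) was the lowest among the 9 genes tested. The ratio of CSF3 to CSF2 was 7.87, 8.41 and 8.34 in Q63E and 5.86, 6.12 and 4.69 in VEC, without overlap (exact permutation p = 0.1, adjusted 0.12).

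CSF1 (ENSG00000184371, chromosome 1 from 109910242 to 109930992, plus strand), the macrophage growth factor M-CSF, had 4.34, 4.48 and 4.39 FPKM in Q63E and 4.42, 5.85 and 4.75 in VEC. The groups overlapped. Its log2 fold change was −0.15 (95% interval −0.42 to 0.13, adjusted p = 0.393). Without VEC replicate 2, the highest library, the log2 fold change was −0.047 (adjusted p = 0.777). CSF1 lies on the chromosome arm that holds RHOC, among genes that were on the whole higher in Q63E, by 0.263 on the log2 scale over its 50 nearest tested genes. Relative to these neighbours its log2 fold change was −0.41 (adjusted p = 0.0587), the lowest adjusted p among its alternatives. The ratio of CSF3 to CSF1 was 31.9, 34 and 28.9 in Q63E and 68.1, 50.5 and 65.7 in VEC. It did not overlap between the groups (exact permutation p = 0.1, adjusted 0.12).

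IL32 and IL24 were the least abundant transcripts in Q63E. IL32 (ENSG00000008517, chromosome 16 from 3065297 to 3082192, plus strand), a cytokine that induces TNF and other inflammatory signals in monocytes, had 2.49, 2.20 and 2.47 FPKM in Q63E and 8.93, 5.72 and 9.01 in VEC. No library crossed over, and VEC replicate 2 was the lowest of its group. Its mean in Q63E was 30.3% of the VEC mean (log2 fold change −1.37, SE 0.172, adjusted p = 0.00242). IL24 (ENSG00000162892, chromosome 1 from 206897443 to 206904139, plus strand), an IL-10 family cytokine, had 0.11, 0.10 and 0.04 FPKM in Q63E and 0.47, 0.74 and 0.92 in VEC. It was under the minimum mean and so was not tested with the others. With no filter on low values its log2 fold change was −0.65 (adjusted p = 0.0202). All its values were under 1 FPKM and the depth is unknown, so the precision of this difference cannot be given.

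**Figure D2:**
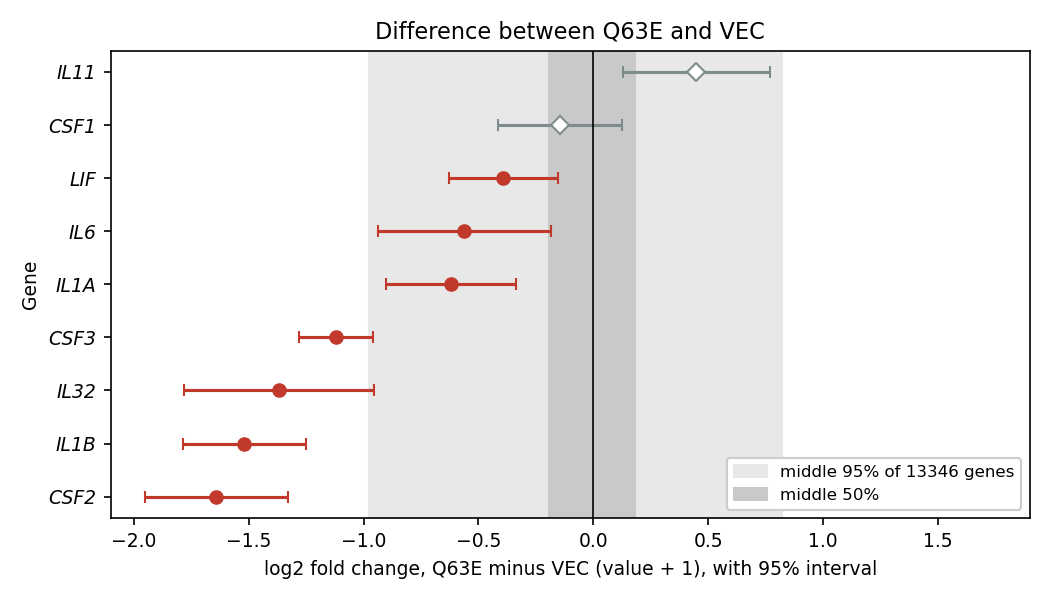
Log2 fold change, Q63E minus VEC, of the 9 tested cytokine genes with 95% intervals from limma. Filled red circles passed the threshold and open diamonds did not. Grey bands span the middle 50% (−0.19 to 0.18) and 95% (−0.98 to 0.82) of all 13346 genes tested. IL1B, IL32, CSF2 and CSF3 lie below the wider band.

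The order of levels differed little between the groups at the top. CSF3 came before IL1B and LIF in both, with IL1B and LIF overlapping in Q63E and CSF3 and IL1B overlapping in VEC. IL6 was the fourth by mean in both groups, though in VEC it overlapped CSF2. Below it, IL1A, IL11 and CSF2 followed in Q63E, with IL11 and CSF2 overlapping, whereas CSF2 and IL1A, which overlapped, and IL11 followed in VEC. The lowest were CSF1, IL32 and IL24 in Q63E, and IL32, CSF1 and IL24 in VEC, where IL32 and CSF1 overlapped. The summed value of the 10 transcripts was 457, 509 and 413 FPKM in Q63E and 915, 853 and 997 in VEC. IL1B made up 20.6% to 22.9% of that sum in Q63E and 29.96% to 31.8% in VEC, while CSF3 made up 29.9% to 30.7% in Q63E and 31.3% to 34.6% in VEC.

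**Figure D3:**
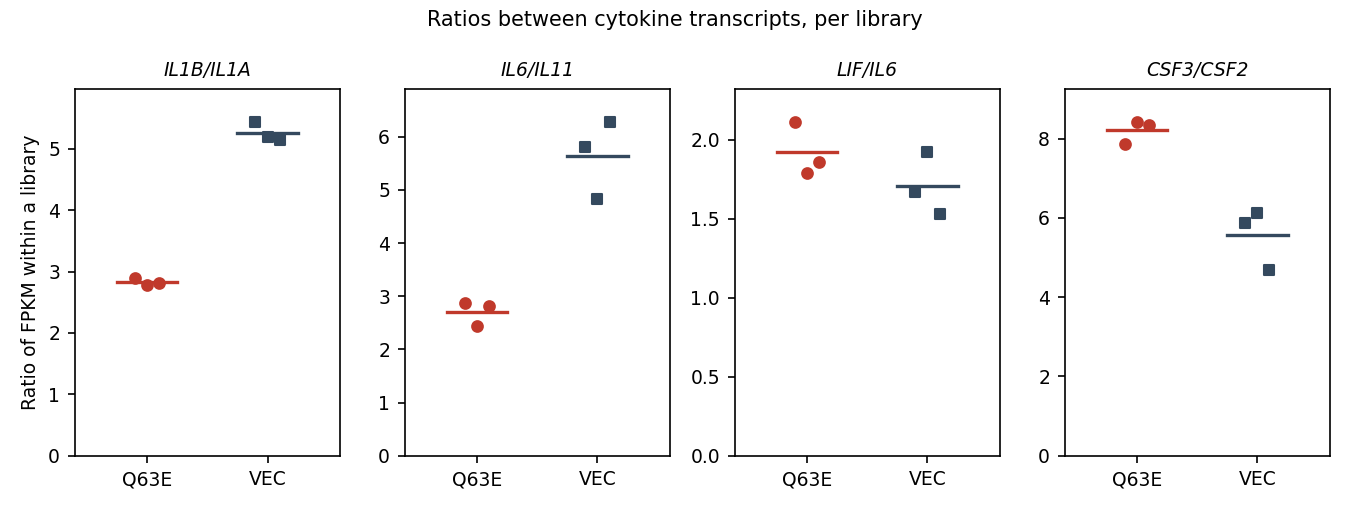
Ratios of FPKM between pairs of related cytokine transcripts in each library, with Q63E as red circles left of VEC as dark squares, bars at the group means and axes from 0. IL1B/IL1A and IL6/IL11 lie lower in Q63E and CSF3/CSF2 higher, without overlap, while LIF/IL6 overlaps.

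Within each group, the same libraries were high or low for most of the genes. VEC replicate 3 was the highest of its group for 9 of the 10 genes and VEC replicate 2 the lowest for 8. Q63E replicate 2 was the highest of its group for 7 and Q63E replicate 3 the lowest for 8. How often these libraries ranked so over all genes was not counted. Without VEC replicate 3, and likewise without VEC replicate 1, Q63E replicate 2 or Q63E replicate 3, 5 of the 9 genes were called lower, with IL6 and LIF no longer past the threshold.

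AU-rich elements, where proteins bind that shorten the life of cytokine mRNA, were counted in 1 annotated 3′ UTR per gene (GENCODE release 29, GRCh38). Stretches of 30 bases rich in the pentamer AUUUA are shown for CSF2, IL1B, CSF3 and IL6, which were called lower, and for IL11, which was not. They are in 5′ to 3′ order with the pentamers in capitals. CSF2 is at chr5:132076077-132076106 on the plus strand, IL1B at chr2:112829994-112830023 on the minus strand, CSF3 at chr17:40016979-40017008 on the plus strand, IL6 at chr7:22731705-22731734 on the plus strand and IL11 at chr19:55365942-55365971 on the minus strand.
CSF2: aaauAUUUAUUUAUUUAUUUAUUUAaguuc
IL1B: gcuucccuAUUUAUUUAUUUAuuuguuugu
CSF3: auguAUUUAucucuAUUUAauAUUUAuguc
IL6: auuuuuaAUUUAuuaauAUUUAaauaugug
IL11: cagaucuuAUUUAUUUAUUUAuuucaguac
The 3′ UTR of CSF2 had 8 pentamers in 318 bases, or 25.2 per kb, and that of IL6 had 6 in 429 bases, or 14.0 per kb. IL1B had 9.84 per kb, CSF3 8.20, IL11 5.56 and IL1A 4.34. The median of 11412 other tested protein-coding genes was 1.68 per kb. Nearer to this median were IL24 with 2.6 per kb and LIF with 2.2. CSF1 had 4 pentamers in 2154 bases, and IL32 had 0 in 464 bases. The longer element UUAUUUAUU was in 4 of the 10, CSF2, IL1B, IL11 and LIF, against 9.22% of the other genes. IL11 held 6 copies of it. Any part of these elements in the differences between groups was not tested.

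**Figure D4:**
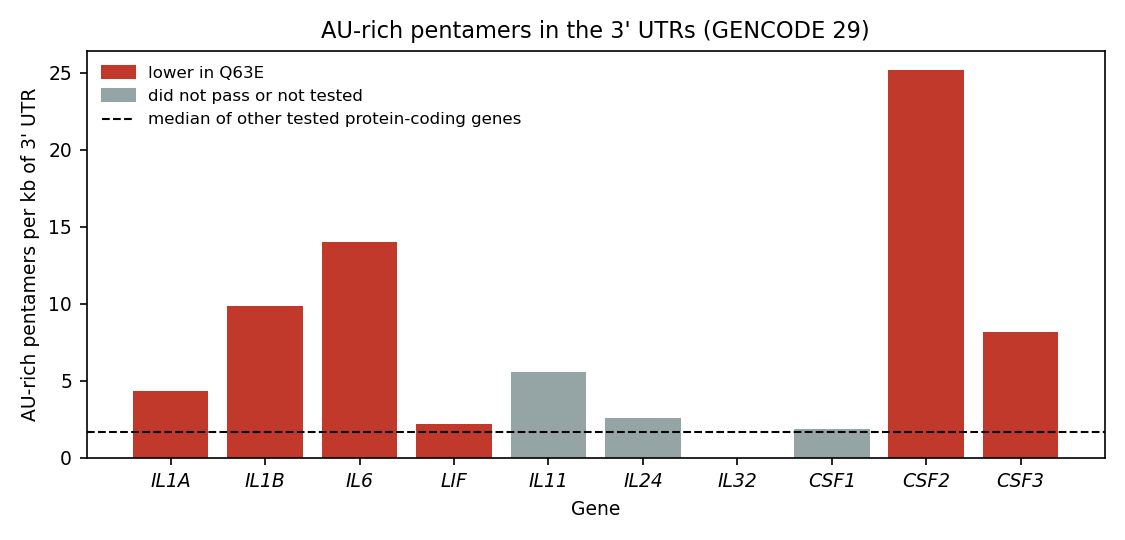
AU-rich pentamers per kb of 3′ UTR for the 10 cytokine genes. Red bars are genes called lower in Q63E, grey bars did not pass or were not tested, and the dashed line is the median of other tested protein-coding genes (1.68 per kb). CSF2 stands highest at 25.2 per kb and IL32 has 0.

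Genes for receptors of these cytokines were expressed in part, with 2 chains each of the IL-1 and IL-6 receptors lower in Q63E. The list of 15 genes also held OSMR, the receptor chain of oncostatin M, which is not among these cytokines. Of the 15 genes 8 were tested. Of these 4 fell and 1, OSMR, rose, where 14.0% of all genes tested fell and 11.3% rose. Their median log2 fold change, with OSMR included, was −0.24 against −0.002 over all genes. IL6ST, which encodes the shared gp130 chain, fell to 21.9 ± 0.453 FPKM in Q63E, against 32.4 ± 1.21 in VEC (SD, n = 3 each; log2 fold change −0.54, adjusted p = 0.000670). IL1RAP, the accessory chain of the IL-1 receptor, averaged 10.8 ± 1.12 FPKM in Q63E and 13.6 ± 0.702 in VEC (adjusted p = 0.0423). The ligand-binding chains IL6R (0.877 ± 0.238 in Q63E and 2.14 ± 0.602 in VEC, adjusted p = 0.0426) and IL1R1 (0.933 ± 0.208 in Q63E and 1.997 ± 0.2804 in VEC, adjusted p = 0.0315) also fell. The call of IL6R was lost without any library but VEC replicate 3, and those of IL1R1 and IL1RAP without any but Q63E replicate 1 (adjusted p of up to 0.127). Relative to their neighbours IL6R (adjusted p = 0.0703) and IL1RAP (adjusted p = 0.264) did not pass, while IL1R1 did (adjusted p = 0.0321). OSMR, named here after its values were seen, averaged 44.1 ± 0.758 in Q63E and 38.1 ± 0.787 in VEC (adjusted p = 0.0122). Receptors of the colony-stimulating factors were near absent. CSF3R was listed at 0 in all 6 libraries, and CSF1R, CSF2RA and CSF2RB reached no more than 0.36 FPKM in any.

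Among other cytokines and growth factors of these kinds, KITLG and IL18 rose. Of 31 genes 9 were tested, and 2 rose and 0 fell (0 fell at an unadjusted p under 0.05 in limma), where 14.0% of all genes tested fell and 11.3% rose. The median log2 fold change was 0.02. KITLG, the stem cell factor that binds the receptor KIT, rose to 43.6 ± 1.98 FPKM in Q63E, against 19.7 ± 1.73 in VEC (log2 fold change 1.11, adjusted p = 0.000240). IL18, an IL-1 family cytokine that is also matured by caspase-1, rose to 55.6 ± 3.74 in Q63E, against 37.0 ± 0.917 in VEC (log2 fold change 0.57, adjusted p = 0.00102). The IL-1 receptor antagonist IL1RN was listed at 0 in all libraries but Q63E replicate 2 (0.15), and IL33 and IL10 were listed at 0 in all 6.

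JAK-STAT genes, which act downstream of gp130, were called about as often as genes at large. Of 18 tested 2 rose and 2 fell, where 14.0% of all genes tested fell and 11.3% rose, and the median log2 fold change was 0.05. SOCS3, the feedback inhibitor induced by STAT3, fell to 11.3 ± 0.699 FPKM in Q63E, against 17.1 ± 1.11 in VEC (log2 fold change −0.55, adjusted p = 0.00302). SOCS5 averaged 5.86 ± 0.373 in Q63E and 7.31 ± 0.296 in VEC (adjusted p = 0.0485, lost without any of the 6 libraries). PTPN6, a phosphatase that dampens cytokine receptors, rose to 8.38 ± 2.01 in Q63E, against 2.32 ± 0.403 in VEC (log2 fold change 1.49, adjusted p = 0.00188), and STAT2 rose to 16.5 ± 1.36, against 12.1 ± 0.734 in VEC (adjusted p = 0.0123). STAT3 had 25.4 to 28.5 FPKM in Q63E and 28.4 to 30.6 in VEC (adjusted p = 0.135).

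Genes of IL-1 receptor signalling and IL-1 maturation had 3 fallen and 1 risen of 20 tested, where 14.0% of all genes tested fell and 11.3% rose, so that their falls were about as frequent as among all genes. The median log2 fold change was −0.05. TAB1, an adaptor of the kinase TAK1, averaged 13.4 ± 0.3001 FPKM in Q63E and 23.0 ± 1.81 in VEC (log2 fold change −0.73, adjusted p = 0.000788). Its neighbours on chromosome 22 were lower too, and relative to them TAB1 did not pass (log2 fold change −0.20, adjusted p = 0.120). IRAK3, an inhibitor of IL-1 receptor signalling, averaged 2.1 ± 0.147 in Q63E and 3.56 ± 0.285 in VEC (adjusted p = 0.0146). IRAK1, a kinase of the receptor complex, rose to 299.6 ± 18.7, against 260.02 ± 10.03 in VEC (adjusted p = 0.0367), and GSDMD, which forms the pores through which IL-1β leaves cells, had 40.5 ± 1.31 in Q63E and 47.8 ± 2.87 in VEC (adjusted p = 0.0263). The call of GSDMD was lost without replicate 1 or 3 of either group (adjusted p of up to 0.0835), and relative to its neighbours its log2 fold change was −0.066 (adjusted p = 0.491). That of IRAK1 was lost without Q63E replicate 1 or 3 or VEC replicate 2 or 3 (adjusted p of up to 0.105). Relative to its neighbours IRAK1 did not pass either (log2 fold change 0.157, adjusted p = 0.0642). CASP1, whose product cuts the IL-1β precursor, had 3.79 to 6.40 FPKM in Q63E and 3.42 to 6.65 in VEC.

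**Figure D5:**
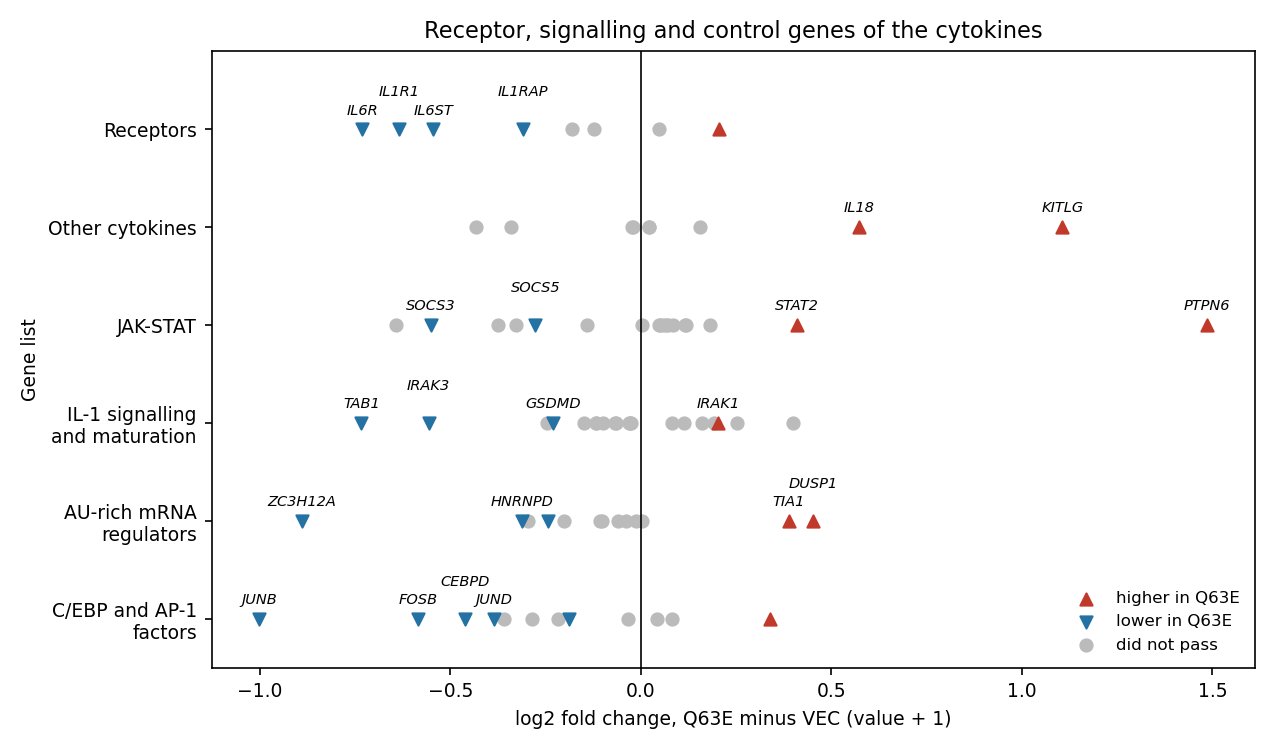
Log2 fold change, Q63E minus VEC, of the tested genes in 6 lists around the cytokines. Triangles up are genes higher and triangles down genes lower in Q63E past the threshold, and grey circles did not pass. Named points include KITLG at 1.11, PTPN6 at 1.49, ZC3H12A at −0.89 and JUNB at −1.002.

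Among 13 regulators of AU-rich cytokine mRNA, 3 fell and 2 rose, where 14.0% of all genes tested fell and 11.3% rose, with a median log2 fold change of −0.10. ZC3H12A, which encodes the nuclease regnase-1 that cuts IL6 mRNA, fell to 12.0 ± 1.20 FPKM in Q63E, against 23.2 ± 2.68 in VEC (log2 fold change −0.89, adjusted p = 0.00206). HNRNPD, the AU-rich element binding protein AUF1, averaged 278 ± 7.40 in Q63E and 346 ± 9.02 in VEC (log2 fold change −0.31, adjusted p = 0.00171). Relative to its neighbours on chromosome 4, HNRNPD had a log2 fold change of 0.075 (adjusted p = 0.325). MAPKAPK2, a kinase that stabilises these mRNAs and named here after its values were seen, had 29.9 ± 2.32 in Q63E and 35.6 ± 1.20 in VEC (adjusted p = 0.0359, lost without any library but Q63E replicate 1, with up to 0.105). Relative to its neighbours MAPKAPK2 did not pass either (log2 fold change −0.183, adjusted p = 0.105). DUSP1, a phosphatase that switches off p38, rose to 109.3 ± 4.62, against 79.6 ± 1.02 in VEC (adjusted p = 0.000741), and TIA1 to 33.4 ± 1.88, against 25.4 ± 3.38 in VEC (adjusted p = 0.0344). The call of TIA1 was lost without any 1 Q63E library or VEC replicate 1 (adjusted p of up to 0.103), and relative to its neighbours its log2 fold change was 0.28 (adjusted p = 0.133). ZFP36, the founding destabiliser of AU-rich mRNA, had 6.96 to 8.06 FPKM in Q63E and 6.71 to 7.98 in VEC.

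Of 12 tested C/EBP and AP-1 factors, 5 fell and 1 rose, where 14.0% of all genes tested fell and 11.3% rose, with a median log2 fold change of −0.25. JUNB fell to 17.4 ± 0.182 FPKM in Q63E, against 36.0 ± 4.78 in VEC (log2 fold change −1.002, adjusted p = 0.000895). FOSB averaged 4.67 ± 0.122 in Q63E and 7.62 ± 1.68 in VEC (adjusted p = 0.0343), JUND 18.9 ± 1.66 in Q63E and 24.997 ± 2.54 in VEC (adjusted p = 0.0286), and CEBPD 4.16 ± 0.465 in Q63E and 6.10 ± 0.451 in VEC (adjusted p = 0.0223). The calls of FOSB and JUND were lost without any library but VEC replicate 1, and that of CEBPD without replicate 3 of either group, Q63E replicate 2 or VEC replicate 1, with adjusted p of up to 0.106. Outside the rule for naming genes, the remaining factors past the threshold were FOSL1, which had 292 ± 9.45 in Q63E and 333 ± 7.25 in VEC (adjusted p = 0.0123), and JUN, the 1 that rose, with 117 ± 4.80 in Q63E and 92.5 ± 1.75 in VEC (adjusted p = 0.00222). Relative to their neighbours FOSB, JUND, CEBPD and FOSL1 did not pass (adjusted p = 0.152, 0.117, 0.191 and 0.054). JUNB and JUN did (adjusted p = 0.00292 and 0.00825). FOSL1 also lost the call with quantile normalization (adjusted p = 0.0513) and with the replicate block (adjusted p = 0.0616). CEBPB had 80.6 to 106 FPKM in Q63E and 98.97 to 119 in VEC (adjusted p = 0.117).

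Among tested protein-coding genes outside these cytokines, the most similar in pattern over the 6 libraries were sought for each family's most abundant member. For IL1B these were SYNPO, CXCL8 and TBX3 (Pearson r of log2 values of 0.9996, 0.9992 and 0.9991), and for CSF3 C8orf33, VIM and OASL (0.9998, 0.9998 and 0.9997). For LIF they included EVA1C and FAS (0.9952 and 0.9927). EVA1C and FAS did not pass the threshold, whereas those named for IL1B and CSF3 were all called lower in Q63E. With 2 groups of 3 libraries, any gene that separates the groups evenly scores high, and the values share the libraries and their scaling. CXCL8, a neutrophil-attracting chemokine, averaged 166.5 ± 33.5 FPKM in Q63E and 649 ± 78.4 in VEC.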

How the data were processed

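RNA from 3 Q63E and 3 VEC libraries of T24 cells was sequenced from TruSeq libraries, per the labels' protocols. HISAT2 2.1.0, Bowtie2 and the build GRCh38.p10 appear in the submitters' processing notes, with no role or order. No source names the counting step or its annotation. The authors deposited 1 value per row for 58233 Ensembl genes and 649 assembled loci, taken here as FPKM although neither header nor labels name the unit. In a search for steps of whole reads, at best 24.2% to 25.6% of low values fell within 0.1 of a whole number, against 20% without steps, so reads were not recovered, depth is unknown and no counting intervals are given. The design assumed this possibility and named limma for it.

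Values were transformed as log2(value + 1), and the 13346 Ensembl genes with a mean of at least 1 were fitted with limma 3.58.1 (eBayes with trend, two-sided, group alone) in R 4.3.3. P-values were adjusted by Benjamini-Hochberg over all of these genes, with a threshold of 0.05, and the steps were tested on simulated data. Ratios within a library were compared by exact permutation. Symbols came from a gene table and coordinates and 3′ UTRs from GENCODE release 29 (GRCh38), from the APPRIS principal transcript, or where several or none had that mark, the one with the longest 3′ UTR. Promoters are RefSeq's. Strand of counting is not stated. Alternatives covered the pseudocount, filters, scaling, the variance trend, neighbouring genes, a replicate block and each left-out library.

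The 10 genes, the 6 gene lists and the marker lists were chosen with earlier results of these data known. By rule the text names RHOC, the 10 genes and, from each list, the up to 4 largest changes among genes past the threshold (the 2 most abundant as well, where fewer than 2 passed). Members of a list that did not pass or that were listed at 0, CD68 and the markers were named outside this rule, after their values were seen. Fibroblast markers summed to 2.52 to 3.76 FPKM in Q63E and 1.94 to 2.47 in VEC, endothelial markers to 0 to 0.24 in Q63E and 0.07 to 0.15 in VEC. 1 gene that the rule for similar patterns would name is not reported here.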

Additional observations from a re-analysis of the deposited data

How the results depend on the processing

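Under the 15 alternatives, 5 of the 7 cytokine genes called lower (IL1A, IL1B, IL32, CSF2 and CSF3) passed every time. IL6 and LIF lost the call under 9 alternatives each, with adjusted p of up to 0.126 and 0.0981. The count of cytokine genes called lower ran from 5 to 7. The count called higher was 0 with limma as used in the report and 1 (IL11) with a pseudocount of 0.1, a minimum mean value of 5, rescaling of each library to the same sum, median-ratio scaling or quantile normalization, and 0 in every fit that left out a library. Over all genes, 1510 were higher and 1873 lower, so that 44.6% of the called genes were higher. With each library rescaled to the same sum 1823 were higher and 1586 lower (53.5% higher), and with quantile normalization 1730 and 1699 (50.5% higher). With the replicate block 942 were higher, and after subtraction of the median of 50 neighbouring genes 1198 were lower. With 1 library left out, 992 to 1138 genes were higher and 1314 to 1483 lower. After subtraction of the neighbours' median HNRNPD changed sign, to 0.075. Besides the cytokine genes, the alternatives were read for RHOC, the list genes named by rule, OSMR, JUN, FOSL1, MAPKAPK2 and CD68. Other named genes, some of which did not pass, were not followed in this way. Of the 28 genes so read, all past the threshold, 12 passed under every alternative. The cause of these shifts was not tested.

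By their titles, same-numbered libraries of Q63E and VEC share only a number, and whether they were handled together is not stated. Deviations of same-numbered libraries from their group means correlated at −0.042, −0.008 and −0.025 over genes, and the replicate block left 5 cytokine genes called lower, without IL6 and LIF. Depth in reads is unknown, so for IL24, under 1 FPKM in every library, the precision cannot be given.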
